A study of Mus musculus with 6 samples.

Results

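Cyp2d9, Cyp2d10, Cyp2d22, Cyp2d26, Cyp2f2, Cyp2j5 and Cyp2u1 are cytochrome P450 genes of the Cyp2 family, and their transcripts were measured in livers of Srf mutant and control mice. The 7 genes were represented by every probe set annotated with exactly 1 gene symbol, that of a member, which gave 10 of the 45101 probe sets on the array. Cyp2d22, Cyp2j5 and Cyp2u1 had 2 probe sets each and the other 4 genes had 1. No probe set was listed for a member together with another gene. The product of Srf, serum response factor, switches on genes of the cytoskeleton and of the early response to growth signals. The mutant livers came from 3 male Srf loxP/loxP AlfpCre mice and the control livers from 3 male Srf loxP/+ AlfpCre mice, all aged 3 weeks, with 1 array per liver. The controls thus carried the Cre transgene too and 1 loxP-flanked copy of Srf. As background, AlfpCre places Cre under albumin and alpha-fetoprotein control elements, so that recombination falls in hepatocytes and bile duct cells and not in the other cells of the liver. Whole liver RNA was measured, so fewer cells of a type and less RNA per cell cannot be told apart.

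Cytochrome P450 enzymes of this family sit in the membrane of the endoplasmic reticulum, hold a heme group and take electrons from P450 reductase and cytochrome b5 to insert oxygen into drugs, steroids and fatty acids. Cyp2d enzymes oxidise steroids and many basic drugs. Cyp2d9 hydroxylates steroids and is made mainly by the livers of adult male mice, and Cyp2d22 is the mouse enzyme often set beside human CYP2D6. Cyp2f2 activates naphthalene and other small aromatic compounds and is abundant in club cells of the mouse lung and in periportal hepatocytes. Cyp2j5 converts arachidonic acid to epoxides in mouse kidney and liver, and Cyp2u1 is related to fatty acid hydroxylases studied in human thymus and brain.

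The RefSeq table on GRCm38.p6 lists 19 Cyp2d entries on a single chromosome, of which 8 are protein-coding and 11 are pseudogenes, and 10 Cyp2j entries on another. Cyp2f2 and Cyp2u1 are the only entries of their subfamilies in that table. Cyp2d genes are close relatives, and the probe sequences were not used here, so how far each Cyp2d probe set also detects its relatives was not tested. The RefSeq promoter table held 5 of the 7 genes, all but Cyp2d22 and Cyp2u1. The 250 bases before the annotated start are printed 5′ to 3′ on the gene's strand for these 5, because the 3 Cyp2d genes and the other 2 genes differed in their values. Capitals mark the TATA box letters TATAA found on either strand. Where matches of both strands overlap, the capitals run over both.
Cyp2d9 (GRCm38.p6, chr15:82452127-82452376, + strand): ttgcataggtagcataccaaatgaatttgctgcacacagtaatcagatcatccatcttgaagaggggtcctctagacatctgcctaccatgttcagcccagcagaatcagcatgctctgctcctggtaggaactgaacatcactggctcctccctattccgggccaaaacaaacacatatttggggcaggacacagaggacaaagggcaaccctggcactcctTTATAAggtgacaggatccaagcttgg
Cyp2d10 (GRCm38.p6, chr15:82407195-82407444, - strand): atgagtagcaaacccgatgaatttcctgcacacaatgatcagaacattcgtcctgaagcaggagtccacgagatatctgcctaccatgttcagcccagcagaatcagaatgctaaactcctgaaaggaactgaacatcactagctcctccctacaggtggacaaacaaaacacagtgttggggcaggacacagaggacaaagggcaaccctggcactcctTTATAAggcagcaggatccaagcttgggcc
Cyp2d26 (GRCm38.p6, chr15:82794246-82794495, - strand): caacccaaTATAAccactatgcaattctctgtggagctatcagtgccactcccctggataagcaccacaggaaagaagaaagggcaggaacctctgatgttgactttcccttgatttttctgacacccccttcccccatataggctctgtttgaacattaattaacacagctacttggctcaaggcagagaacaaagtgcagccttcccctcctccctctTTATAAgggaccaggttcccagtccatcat
Cyp2f2 (GRCm38.p6, chr7:27119705-27119954, + strand): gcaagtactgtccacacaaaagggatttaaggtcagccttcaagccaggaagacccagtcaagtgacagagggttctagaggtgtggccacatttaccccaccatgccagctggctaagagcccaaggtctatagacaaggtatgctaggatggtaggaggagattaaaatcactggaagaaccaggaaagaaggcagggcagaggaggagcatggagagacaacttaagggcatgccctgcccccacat
Cyp2j5 (GRCm38.p6, chr4:96664120-96664369, - strand): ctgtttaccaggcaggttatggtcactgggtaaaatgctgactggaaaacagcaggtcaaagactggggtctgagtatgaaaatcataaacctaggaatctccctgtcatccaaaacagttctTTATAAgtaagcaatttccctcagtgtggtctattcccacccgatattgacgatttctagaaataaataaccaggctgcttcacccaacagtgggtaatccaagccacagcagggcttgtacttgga

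Each of the 3 Cyp2d windows held TATAA close to the start, its forward match beginning at position -26 in Cyp2d9 and at -29 in Cyp2d10 and Cyp2d26, counted back from the annotated start. In Cyp2d26 a further match lay at -242. Cyp2j5 held it at -126 and Cyp2f2 had no match. TATAA occurred anywhere in the window, on either strand, in 22.8% of all 32851 promoter windows of this length in the table. The share of windows with a match close to the start was not computed. Cyp2d9 and Cyp2d10 were 82.8% identical over a gapped alignment of these windows, while the other 9 pairs lay between 49.2% and 54.4%. The 5 windows were also searched on both strands for the CArG box, the letters bound by SRF, for the STAT5 element TTCNNNGAA, the C/EBP element TTGCNNAA, the HNF1 core GTTAAT, the HNF4 core CAAAG and CCAAT. None held a CArG box, a STAT5 element or a C/EBP element, which occurred in 1.47%, 7.02% and 9.56% of all windows. CAAAG was found in each of the 5 except Cyp2f2, against 48.6% of all windows. GTTAAT and CCAAT were found in Cyp2d26 alone, against 6.43% and 33.9% of all windows. These matches describe letters in a short window and are not evidence of binding.

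The values below are deposited array signals that were multiplied to a common trimmed mean and put on a log2 scale after a floor of 1. All 10 probe sets passed the filter on dim probe sets, which kept 27022 in all. The background estimate was the 95th percentile of 83 probe sets for chemosensory receptors not used by liver, odorant, pheromone and taste receptors, and was 3.05 in mutants and 2.86 in controls. The test was limma with Benjamini-Hochberg adjustment over all kept probe sets and a threshold of 0.05. Over all kept probe sets 0.0740% passed, and 0.114% of the 13144 genes passed when each was represented by its brightest kept probe set. None of the 10 probe sets of these 7 genes passed. At an unadjusted p under 0.05 there were 4, against 13.8% of all kept probe sets, and they belonged to Cyp2f2, Cyp2j5 and Cyp2u1. The groups did not overlap and mutants were lower for 5 of the 10 probe sets, against 9.34% of all kept probe sets. By gene these were 3 of 7, against 10.8% of all genes, and 1 of 7 was higher without overlap, against 14.1%. The median log2 difference, mutant minus control, was -0.34 over the 7 genes and 0.06 over all genes.

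**Figure D1:**
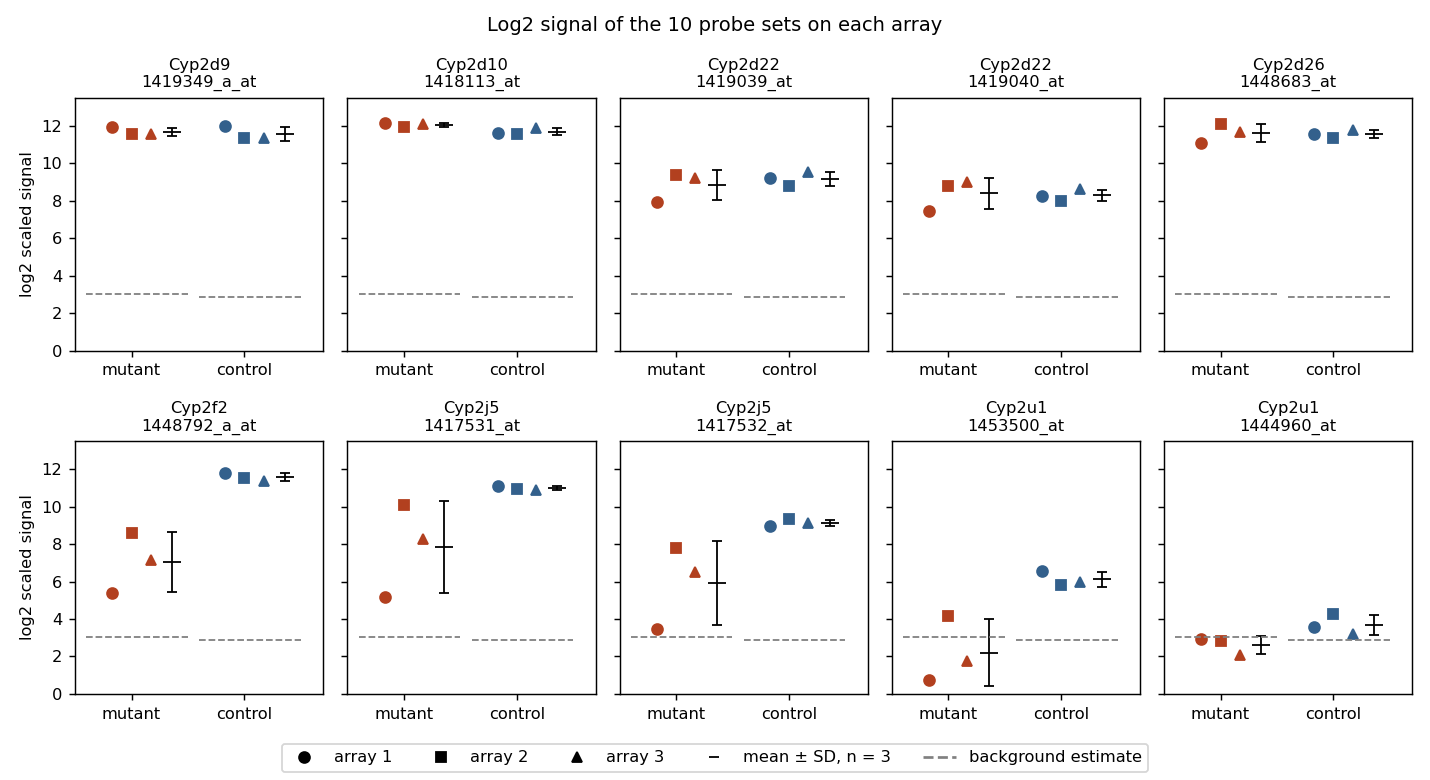
Log2 scaled signal (vertical axis) of the 10 probe sets on each of the 3 mutant and 3 control arrays, with the mean and SD beside the points and the background estimate as a dashed line. The 4 Cyp2d genes overlap or lie close in both groups, while the mutants lie below all controls for Cyp2f2, Cyp2j5 and Cyp2u1.

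Cyp2f2 was far lower in the mutants and still above background in them. Its probe set (1448792_a_at) gave log2 signals of 5.39, 8.58 and 7.15 in mutants 1 to 3, against 11.80, 11.53 and 11.39 in controls 1 to 3. The brightest mutant array thus lay well below the dimmest control, and the controls lay close together. On the linear scale the scaled signals were 42.0, 383 and 142 in mutants and 3575, 2958 and 2678 in controls. The mean log2 signal was 7.04 ± 1.60 in mutants and 11.57 ± 0.21 in controls (SD, n = 3), a log2 difference of -4.53 (SE 0.68, 95% interval -6.11 to -2.95) or 23.1-fold lower in mutants. With limma this did not pass (adjusted p = 0.0748). It passed without mutant 1 (-3.71, limma adjusted p = 0.00985) and without mutant 2 (-5.30, limma adjusted p = 0.00625). It also passed on log2(signal + 32) (-4.14, limma adjusted p = 0.0228). All 3 mutant arrays stayed above the background estimate, so the transcript was still measured in each.

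Cyp2j5, the arachidonic acid epoxygenase, showed the widest spread between mutant livers. Its brighter probe set (1417531_at) gave 5.18, 10.07 and 8.27 in mutants 1 to 3, against 11.10, 10.97 and 10.89 in controls. Mutant 2 lay just below the controls and mutant 1 far below them, with no overlap of the groups. The log2 difference was -3.15 (SE 1.03, 95% interval -5.52 to -0.78, limma adjusted p = 0.314), 8.87-fold lower in mutants. The second probe set (1417532_at) gave 3.46, 7.78 and 6.53 in mutants, against 8.99, 9.32 and 9.13 in controls, with a log2 difference of -3.22 (limma adjusted p = 0.291). The probe sets placed the mutant arrays in the same order, and their shifts from the control mean differed by at most 0.45 on any mutant array. Without mutant 2 both passed, at -4.26 and -4.15 (limma adjusted p = 0.0466 and 0.0499), and without mutant 1 the differences were -1.82 and -1.99 with neither past the threshold (limma adjusted p = 0.147 and 0.0561).

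Cyp2u1 was dim in control liver and near or below background in the mutants. Its brighter probe set (1453500_at) gave 0.73, 4.17 and 1.73 in mutants 1 to 3, against 6.58, 5.83 and 5.98 in controls. Mutant 2 was the only mutant array above the background estimate, and it too lay below each control. The fitted log2 difference was -3.92 (SE 0.79, limma adjusted p = 0.164), and against the background estimate the mutant mean was at least 8.48-fold lower. That bound holds for the mean and not for mutant 2 by itself. Without mutant 2 the probe set passed (-4.90, limma adjusted p = 0.00628), and without mutant 1 it did not (-3.18, limma adjusted p = 0.0967). It passed on log2(signal + 32), a scale that shrinks dim signals (-1.39, limma adjusted p = 0.0411). The other probe set (1444960_at) gave 2.93, 2.84 and 2.06 in mutants, all below background, against 3.58, 4.25 and 3.19 in controls (-1.07, limma adjusted p = 0.376). The dim probe set was close to background in controls too, so it gives only a bound, at least 1.55-fold lower in mutants.

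As background rates for the settings in which members passed, 2.14% of all kept probe sets passed without mutant 2, where 4 of the 10 member probe sets passed. Without mutant 1 it was 0.466% of all, with 1 of the 10, and on log2(signal + 32) it was 0.396% of all, with 2 of the 10.

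The 4 Cyp2d genes were bright in both groups and none passed the test. The groups overlapped for each of them except Cyp2d10. Cyp2d9 (1419349_a_at) gave 11.94, 11.57 and 11.58 in mutants, against 12.01, 11.38 and 11.38 in controls, so that the groups overlapped. Its log2 difference was 0.11 (95% interval -0.47 to 0.68, limma adjusted p = 0.849). The interval does not reach the size seen for Cyp2f2 in either direction.

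Cyp2d10 (1418113_at) gave 12.14, 11.96 and 12.08 in mutants, against 11.64, 11.57 and 11.91 in controls. All mutants lay above all controls, by a small margin, with a log2 difference of 0.36 (95% interval -0.10 to 0.81, limma adjusted p = 0.420), 1.28-fold. This direction was not kept under each scaling. The difference was -0.097 on the deposited scaling, which shifts all probe sets, and -0.0098 after quantile normalization.

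Cyp2d26 (1448683_at) gave 11.10, 12.10 and 11.69 in mutants, against 11.55, 11.38 and 11.80 in controls. The mutants reached both below and above the controls, with a log2 difference of 0.05 (95% interval -0.60 to 0.71, limma adjusted p = 0.939). Its difference was -0.40 on the deposited scaling, which shifts all probe sets.

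Cyp2d22 was lowest in mutant 1 on both of its probe sets. The brighter one (1419039_at) gave 7.94, 9.39 and 9.21 in mutants, against 9.24, 8.80 and 9.54 in controls (log2 difference -0.34, 95% interval -1.28 to 0.59, limma adjusted p = 0.683). The other (1419040_at) gave 7.46, 8.79 and 8.99 in mutants, against 8.26, 8.01 and 8.62 in controls (0.12, 95% interval -0.83 to 1.06, limma adjusted p = 0.906). On both probe sets mutants 2 and 3 lay above their control mean and mutant 1 lay below every control. Without mutant 1 the brighter probe set had 0.11 in place of -0.34.

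**Figure D2:**
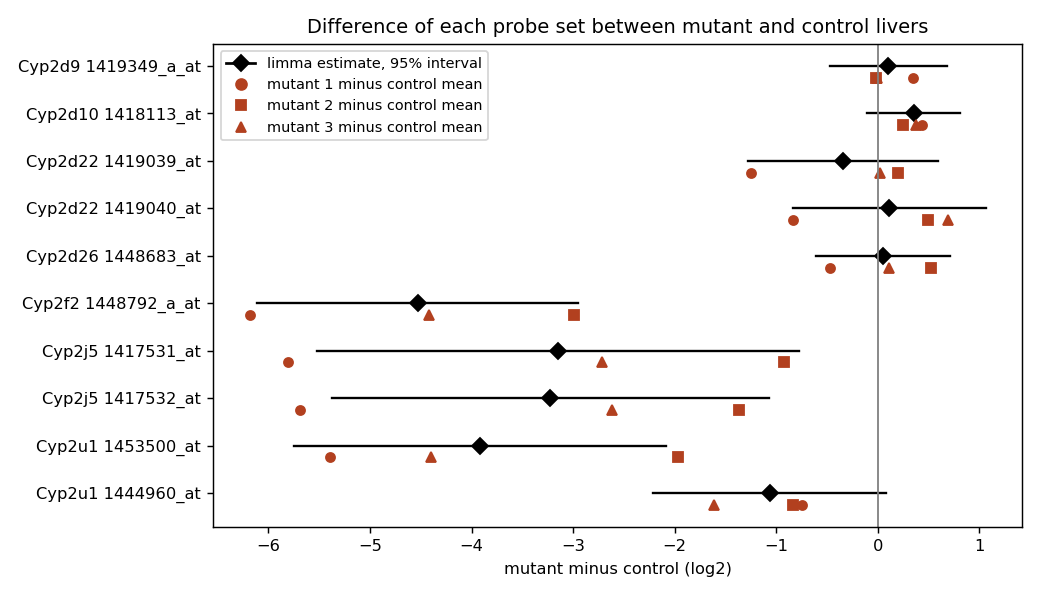
Log2 difference, mutant minus control (horizontal axis), of each of the 10 probe sets, with the limma estimate as a diamond, its 95% interval as a line and each mutant array's shift from the control mean as a red point. The intervals of the 5 Cyp2d probe sets include 0, as does that of the dim Cyp2u1 probe set, and the other 4 lie below 0 without adjustment for the number of probe sets tested.

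The deposited scaling shifted the median of all kept probe sets by -0.45 relative to the trimmed mean scaling, and centring on the array median shifted it by -0.24. Relative to that median, Cyp2d9 differed by 0.02 on the trimmed mean scaling and by 0.03 on the deposited one, Cyp2d10 by 0.27 and 0.28, and Cyp2d26 by -0.03 and -0.02. After quantile normalization these were -0.19 for Cyp2d9, -0.03 for Cyp2d10 and -0.19 for Cyp2d26. The brighter Cyp2d22 probe set differed by -0.42 on both the trimmed mean and the deposited scaling, and by -0.32 after quantile normalization. Its other probe set differed by 0.03, 0.04 and 0.14. Cyp2f2, Cyp2j5 and Cyp2u1 kept their direction under each of the 4 scalings.

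To compare the genes on the same arrays, the within-array difference between each pair of genes was compared between the groups, which removes the scaling of an array. There were 21 pairs, each represented by the brightest kept probe sets and tested by a two-sided exact permutation test. With 3 against 3 arrays no p under 0.1 can be reached, and the Benjamini-Hochberg adjusted value of a pair at that limit was 0.162, so no pair could pass. In 13 of the 21 pairs the groups did not overlap. They included all 12 pairs of a Cyp2d gene with Cyp2f2, Cyp2j5 or Cyp2u1, none of the 6 pairs among Cyp2d genes, and 1 of the 3 pairs among Cyp2f2, Cyp2j5 and Cyp2u1. These counts largely restate the differences already given for each gene and are no separate support for them. The share without overlap among pairs of all genes was not computed. The difference between the responses of Cyp2d10 and Cyp2f2 was 4.89 on the log2 scale (exact permutation p = 0.1), and that of Cyp2d22 and Cyp2j5, the least of the 12, was 2.80 (exact permutation p = 0.1). Cyp2f2 relative to Cyp2j5 had a difference of -1.38, without overlap (exact permutation p = 0.1). Among the Cyp2d genes the responses differed by 0.70 or less. The 12 mixed pairs did not overlap after quantile normalization or on log2(signal + 32) either. The 4 of them with Cyp2u1 use mutant signals that lie below background on 2 arrays, so their sizes depend on the floor.

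**Figure D3:**
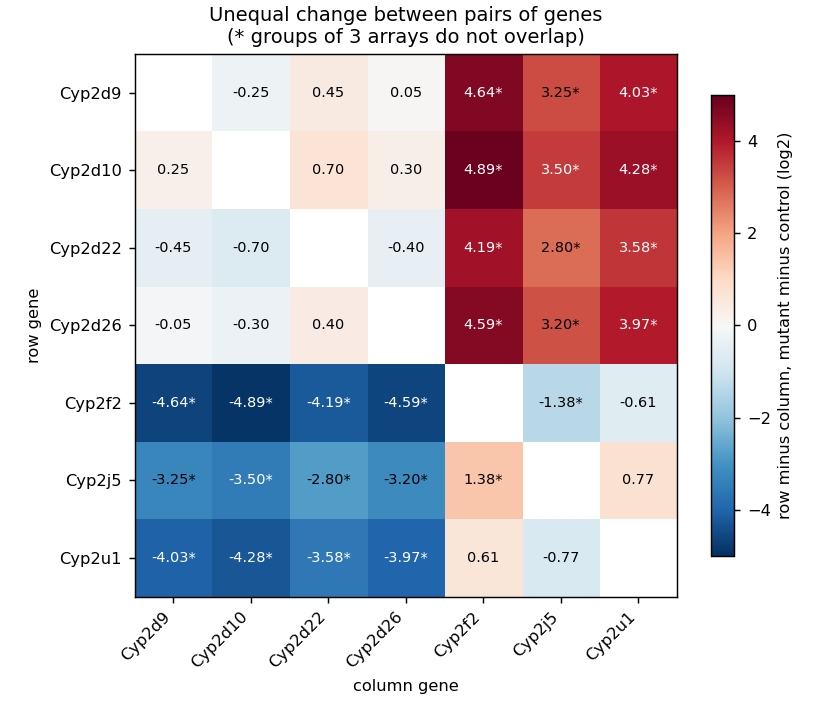
Log2 difference between the responses of 2 genes (row minus column, mutant minus control, colour scale), for the 7 genes, with an asterisk where the within-array differences of the 3 mutant and 3 control arrays do not overlap. The block that sets the Cyp2d genes against Cyp2f2, Cyp2j5 and Cyp2u1 holds sizes between 2.80 and 4.89, and the block among Cyp2d genes holds none over 0.70.

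The mutant livers were ordered alike for Cyp2f2 and for both Cyp2j5 probe sets, with mutant 1 lowest, mutant 3 next and mutant 2 highest. For the brighter Cyp2u1 probe set mutant 2 was highest too, and mutants 1 and 3 were both below background, where their order is not measured. The shifts from the control mean were -6.18, -2.99 and -4.42 for Cyp2f2 in mutants 1 to 3, and -5.81, -0.92 and -2.72 for Cyp2j5. For Cyp2u1 the shift was -1.96 in mutant 2. The 3′ over 5′ ratios of the control probe sets for RNA quality ran in the reverse order. They were highest in mutant 1, where the signals of Cyp2f2 and Cyp2j5 were lowest, and lowest in mutant 2. For Pcx the 3′ probe set over the 5′ one gave ratios of 17.3, 6.39 and 10.5 in mutants, against 4.94, 4.44 and 7.03 in controls (two-sided exact permutation p = 0.2). For Actb the ratio was 5.33, 2.36 and 2.92 in mutants, against 1.91, 1.68 and 2.36 in controls (two-sided exact permutation p = 0.2). For Gapdh it was 1.01, 0.773 and 0.866 in mutants, against 0.711, 0.679 and 0.756 in controls (two-sided exact permutation p = 0.1).

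With the mean log2 of these ratios as a covariate in the limma fit, Cyp2f2 had a log2 difference of -2.69 (adjusted p = 0.222), and the brighter Cyp2u1 probe set had -2.06 (limma adjusted p = 0.930). For Cyp2j5 the difference was -0.35 and -0.72 on its 2 probe sets with this covariate (limma adjusted p = 0.956 and 0.930). The size of each thus depended on this term, and most for Cyp2j5. The mean ratios of all 3 control genes were higher in mutants than in controls. These ratios thus moved with genotype, and among mutants they ran in reverse to the signals of Cyp2f2 and Cyp2j5.

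**Figure D4:**
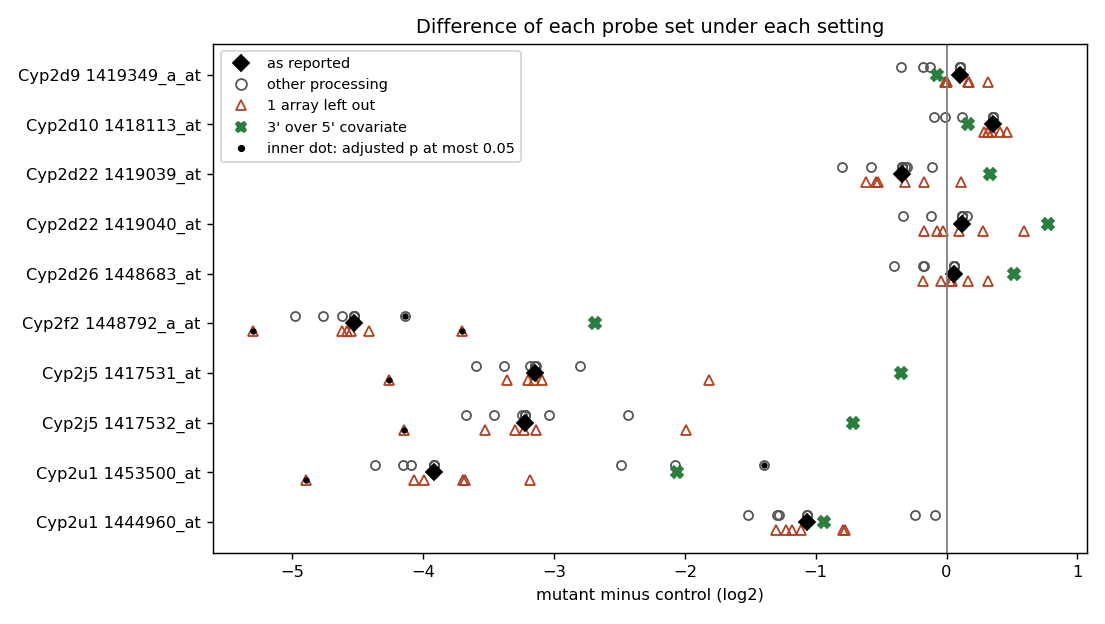
Log2 difference, mutant minus control (horizontal axis), of each of the 10 probe sets as reported and under each other setting, with inner dots where the adjusted p was at most 0.05. Each Cyp2d probe set has values on both sides of 0, but Cyp2d22 (1419039_at) was negative in 15 of 17 other settings and Cyp2d10 positive in 15 of 17. The probe sets of Cyp2f2, Cyp2j5 and Cyp2u1 stay below 0 in every setting shown. The 3′ over 5′ covariate lies nearest to 0 for Cyp2f2 and for both Cyp2j5 probe sets.

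The targeted gene itself did not separate the groups. The brighter Srf probe set (1418256_at) gave 4.18, 5.24 and 2.54 on the arrays labelled mutant 1 to 3, against 5.31, 5.14 and 5.11 in controls (limma adjusted p = 0.398). The array labelled mutant 2 lay within the controls there and was at the floor on the other probe set (1418255_s_at). No source used here places either probe set inside or outside the floxed exons, so neither is a check of genotype. Correlations of log2 signal between arrays were 0.827 to 0.907 among mutants, 0.937 to 0.941 among controls and 0.781 to 0.931 between the groups.

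The genes with the pattern most like each member were found by the root mean square difference of shifts from the control mean over the 6 arrays. For Cyp2f2 they were Nrep (0.28), the aldehyde dehydrogenase Aldh1a7 (0.31) and Mmd2 (0.39). Aldh1a7 (1418601_at) had shifts of -6.34, -2.37 and -4.05 in mutants 1 to 3, close to those of Cyp2f2 on each array. For Cyp2j5 they were Bdh1 (0.23), which encodes a ketone body dehydrogenase, Gsap (0.29) and the collagen gene Col3a1 (0.32). For Cyp2u1 they were the carboxylesterase gene Ces2e (0.32), the organic anion transporter gene Slc22a7 (0.33) and 1810008I18Rik (0.45). For Cyp2u1 the measure includes mutants 1 and 3, where its signal was below background, so the likeness there is only approximate. Among the members themselves each Cyp2d gene lay within 0.72 of the other Cyp2d genes.

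**Figure D5:**
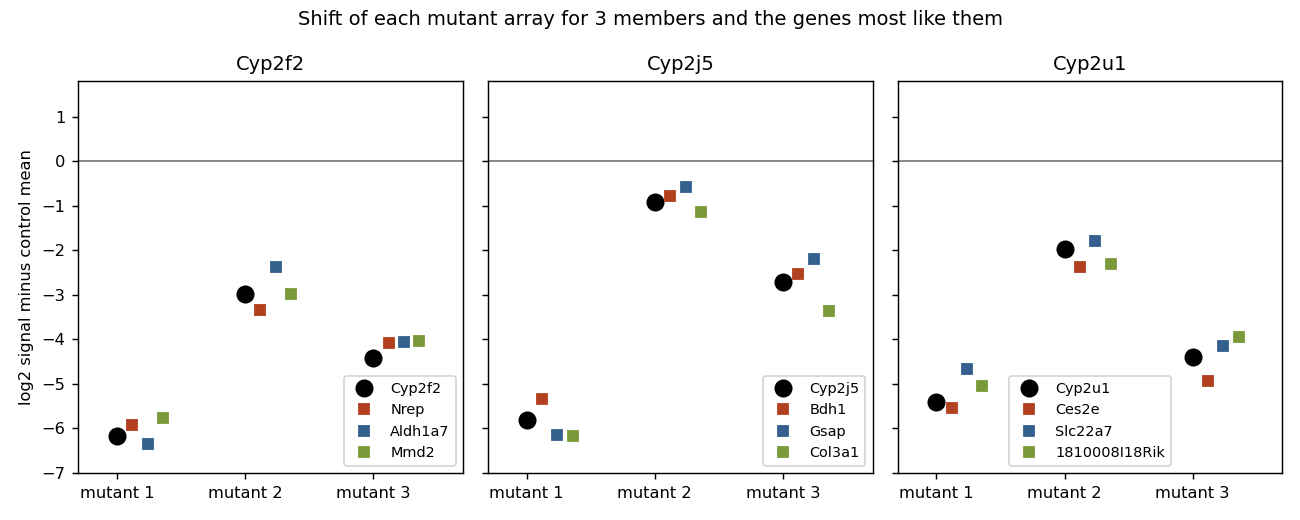
Log2 signal minus the control mean (vertical axis) on the 3 mutant arrays for Cyp2f2, Cyp2j5 and Cyp2u1 (black) and the 3 genes most like each (squares). Mutant 2 is highest for all 3 members, with Cyp2j5 at -0.92 there, and Cyp2u1 lies below background in mutants 1 and 3.

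The genes most like the Cyp2d members were Zscan26, Map2k3 and Ust for Cyp2d9 (0.08 to 0.10), and Trappc6b, the retinol dehydrogenase Rdh7 and Anks1 for Cyp2d10 (0.05 to 0.07). They were Lhfp, Gatd3a and Gzf1 for Cyp2d22 (0.10 to 0.13), and Nxn, Csrnp2 and Tnrc18 for Cyp2d26 (0.07 to 0.09). Most shifts of these members were small, so other genes that changed little lie near them. Their smaller values therefore do not mean a closer likeness than those of Cyp2f2, Cyp2j5 and Cyp2u1.

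Of 18 other genes of the Cyp2d and Cyp2j subfamilies and of small Cyp2 subfamilies, 10 had a kept probe set, and none passed the test. Mutants were lower without overlap for 2 of them, against 10.8% of all genes. The median log2 difference was -0.52, and -0.97 on the deposited scaling. Of the 10 genes, 5 had means below background in mutants and 3 in controls, with 2 below it in both groups. The median thus rests partly on unmeasured signals. Cyp2d13, which RefSeq lists as a transcribed pseudogene, stood apart from the 4 Cyp2d members. Its brighter probe set (1425365_a_at) gave 4.23, 5.08 and 4.38 in mutants, against 6.75, 6.29 and 6.55 in controls (-1.97, limma adjusted p = 0.0881), and its other one (1431803_at) gave 2.61, 4.57 and 3.94 in mutants, against 5.63, 5.12 and 5.14 in controls. The other gene without overlap was Cyp2g1 (1449565_at), below background in mutants and at least 2.54-fold lower without passing (limma adjusted p = 0.300). Cyp2j6 (1417952_at), a relative of Cyp2j5, gave 6.46, 6.74 and 6.45 in mutants, against 6.53, 5.90 and 6.14 in controls, and the groups overlapped. Its dimmer probe set (1440691_at) gave 4.35, 6.11 and 6.04 in mutants, against 5.99, 5.67 and 5.75 in controls, also with overlap. The log2 differences of these probe sets had opposite signs, 0.36 and -0.30.

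Of 18 genes for electron supply and heme, 16 were kept and none passed. Mutants were lower without overlap for 7 and higher for 2, against 10.8% and 14.1% of all genes. The median was -0.45, and on the deposited scaling it was -0.90, with 8 lower and 0 higher. Alad, an enzyme of heme synthesis, had -1.96 (limma adjusted p = 0.314), Cyb5b, an outer mitochondrial cytochrome b5, had -1.30 (limma adjusted p = 0.321) and the reductase Cyb5r3 had -1.11 (limma adjusted p = 0.335). Hmox1, which degrades heme, had 1.08 (limma adjusted p = 0.338), and microsomal cytochrome b5, Cyb5a, had -0.02. Of 10 genes that handle arachidonate and its epoxides, 8 were kept and none passed. The epoxide hydrolases Ephx1 and Ephx2, which act on epoxides of the kind Cyp2j5 makes, had -0.04 and -0.03, and the fatty acid binding protein Fabp1 had -1.92 (limma adjusted p = 0.360).

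Of 27 transcription factors known to act on liver Cyp2 genes, 24 were kept and none passed, with a median of -0.19. Mutants were lower without overlap for 2 and higher for 1, against 10.8% and 14.1% of all genes. The lower ones were the clock factor Dbp at -2.55 (limma adjusted p = 0.291) and the glucocorticoid receptor Nr3c1 at -0.49 (limma adjusted p = 0.427). The higher one was Hnf4a at 0.30 (limma adjusted p = 0.515), but on the deposited scaling 0 were higher and 6 lower without overlap. Nr0b2, a corepressor, had -3.69 with overlapping groups (limma adjusted p = 0.355), and Cebpb had 0.57, also with overlap (limma adjusted p = 0.407).

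Hepatocyte and other cell markers were read on the same arrays. For comparison, 10.8% of all genes were lower and 14.1% higher in mutants without overlap. Of 15 hepatocyte markers kept, 11 were higher in mutants without overlap and the median was 0.34, but on the deposited scaling 13 of the 15 had a negative difference, with a median of -0.11. Their summed scaled signal was 102522 to 135732 in mutants and 85082 to 97043 in controls. Cyp2f2 marks periportal hepatocytes. The 14 periportal markers kept, which did not include Cyp2f2, had a median of 0.25, with 6 higher and 1 lower without overlap, and a median of -0.20 on the deposited scaling. The 15 pericentral markers kept had a median of -0.11, with 5 higher and 1 lower without overlap, but on the deposited scaling the median was -0.56, with 0 higher and 2 lower. None of the markers in any list passed the test. The order of mutants seen for Cyp2f2 and Cyp2j5 also appeared in the mean shifts of several lists, but not of all. In mutants 1 to 3 these were -0.90, 0.41 and -0.15 for the pericentral markers, -0.32, 0.27 and 0.25 for the periportal ones, and -1.49, 0.30 and -1.23 for 4 erythroid markers. The 15 hepatocyte markers had the reverse order, at 0.49, 0.17 and 0.29. Cholangiocyte (0.52, 0.38 and 1.09), lymphocyte (-0.74, 0.09 and -1.17) and kidney tubule markers (0.12, 0.32 and 0.65) did not follow it either. The 12 stellate cell markers had mean shifts of -2.32, 0.20 and -1.35 in mutants 1 to 3 and summed signals of 957 to 3713 in mutants, against 3074 to 3279 in controls, with 2 of the 12 below background in mutants. The 12 endothelial markers had mean shifts of -0.93, 0.78 and -0.31 and the 12 Kupffer cell markers of -0.72, -0.07 and -0.53. The medians of other lists were 0.49 over 7 cholangiocyte markers, -0.62 over 7 lymphocyte markers, -0.32 over 4 erythroid markers and 0.30 over 5 kidney tubule markers. On the deposited scaling these medians were 0.04, -1.01, -0.77 and -0.15. Means lay below background for 3 cholangiocyte markers in controls and 1 in mutants, and for 4 lymphocyte markers in mutants. For kidney tubule markers it was 3 in controls and 2 in mutants, so the medians of these 3 lists rest partly on unmeasured signals. The part of these cells in the results was not tested. Of 6 club cell markers 4 were kept, and apart from Aldh1a7, which was bright in control liver, the other 3 had control means below background. The list median was 0.82, opposite in sign to Aldh1a7 at -4.25. Sftpd was higher in mutants without overlap, at least 2.11-fold (limma adjusted p = 0.314), and Scgb3a1 at least 1.48-fold with overlap (limma adjusted p = 0.373).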

How the data were processed

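Total RNA from 6 livers was biotin-labelled in 1 cycle for Affymetrix arrays, as the labels' protocols state. The authors deposited 1 linear intensity per probe set and array, made with GCOS, the Affymetrix scanner software, per the submitters' processing notes. The algorithm, version, scaling target and genome build are unstated in those notes, and no sample column was left unused (0). Samples were grouped by their titles.

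The arrays were brought to a common level, the average of their trimmed means (2% cut from both tails). The trimmed means were 36.8, 57.6 and 42.0 in mutants and 54.7, 69.3 and 60.2 in controls. Signals under 1 were set to 1 (12.4% to 17.1% of probe sets per array), log2 was taken and the lower 40% of probe sets by mean were left out (threshold 2.11), 64 array controls apart. Gene symbols came from the platform annotation, updated through the Entrez identifier for 34741 of 34945 probe sets with 1 symbol. The comparison used limma 3.58.1 (R 4.3.3), with lmFit, then eBayes with a variance trend, and two-sided p-values. The number of arrays limits the precision. Windows were aligned with Biopython 1.88. The fit was tested on simulated data with the same SD in both groups, so that test does not cover the wider spread among mutants seen here.

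All probe sets of the members are named, with Srf and the 3 genes most like each member. The plan was to name up to 4 genes of each list, those of smallest adjusted p. It was not followed in full, as Pla2g12b, Cyp2r1, Cyp2d40 and the genes of most cell marker lists are left out above. Others (Cyp2j6, Cyb5a, Ephx1, Ephx2, Hnf4a and the second probe set of Cyp2d13) were named after their values were seen. The members and lists were chosen with earlier results of these data known. The alternatives were other scalings, floors, filters and variance priors, a 3′ over 5′ covariate, a replicate block, averaging the probe sets of a gene and leaving out each array.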

Additional observations from a re-analysis of the deposited data

How the results depend on the processing

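Of 166 differences of single probe sets under 17 alternatives, 139 kept their direction and their side of the threshold, 7 kept their direction and passed, and 20 reversed, all of them for Cyp2d genes. Of these, 7 came from the deposited and median-centred scalings, which shift all probe sets by -0.45 and -0.24, so a difference near 0 had to turn. All 82 differences of Cyp2f2, Cyp2j5 and Cyp2u1 were negative. No member probe set passed as reported, 2 passed on log2(signal + 32), and 0 to 4 passed when 1 array was left out. Deviations of same-numbered arrays from their group means correlated at -0.04, 0.02 and 0.04, so the numbers were not taken as pairs. With the replicate block 0 passed and no call changed (Cyp2f2 -4.53, limma adjusted p = 0.0833). Differences that reversed were -0.35 for Cyp2d9, -0.097 for Cyp2d10, -0.34 for Cyp2d22 (1419040_at) and -0.40 for Cyp2d26 on the deposited scaling. With arrays centred on their median they were -0.13 for Cyp2d9, -0.12 for Cyp2d22 (1419040_at) and -0.18 for Cyp2d26, and after quantile normalization -0.18 for Cyp2d9, -0.0098 for Cyp2d10 and -0.17 for Cyp2d26. With the 3′ over 5′ covariate they were -0.072 for Cyp2d9 and 0.33 for Cyp2d22 (1419039_at). Without 1 array Cyp2d9 ranged between -0.014 and 0.32, Cyp2d22 between -0.62 and 0.11 (1419039_at) and between -0.17 and 0.59 (1419040_at), and Cyp2d26 between -0.18 and 0.32. The cause was not tested. Over all kept probe sets, 20 passed as reported, 35 on the deposited scaling, 107 on log2(signal + 32), 9 without the variance trend, 9 with a floor of 16, 11 with the filter at 60%, 5 with the covariate, 0 without the filter (limma, with 4707 at an unadjusted p under 0.05) and between 2 and 578 without 1 array. Cyp2u1 is close to background in mutants, so its size depends on the floor: it was -2.07 with a floor of 16 and -1.39 on log2(signal + 32).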
